A study of Rattus norvegicus with 15 samples.

Results

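Mbp and Mobp are 2 of the 30560 rat genes counted in these libraries, and they were taken by their Ensembl identifiers, ENSRNOG00000016516 for Mbp and ENSRNOG00000018700 for Mobp. The rule that names them rests on both mRNAs being known cargo of hnRNP A2 in oligodendrocytes and uses no measured value, although it was written with earlier results of these data known. The pairing of these identifiers with the symbols was given together with that choice and was not checked against another table. Both identifiers were present in each of the 15 libraries with at least 1 count, and both passed the expression filter of each comparison.

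Mbp encodes myelin basic protein, which lies on the inner face of the myelin membrane and holds the membrane layers together. Mobp encodes myelin-associated oligodendrocyte basic protein, a small basic protein of compact myelin. Both mRNAs are carried in granules along oligodendrocyte processes and translated near the forming myelin sheath. In Mbp mRNA the RNA-binding protein hnRNP A2 recognises a short element in the 3′ untranslated region, and this binding is part of how the mRNA is transported and kept from early translation.

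The libraries came from primary rat oligodendrocytes matured in culture from precursor cells of newborn Sprague-Dawley forebrain cortex. There were 5 groups of 3 libraries, and the titles give each library the number 2, 3 or 4. The groups were the hnRNP A2 immunoprecipitation (IP) of cells treated with oligomeric amyloid-β, the hnRNP A2 IP of control cells, an IgG IP, the total input RNA of amyloid-β-treated cells and the input RNA of control cells. The labels describe the IgG libraries as a pool of both treatments, but the deposited files of these libraries are named for amyloid-β, and the make-up of the pool was not checked. No source used here gives the dose and duration of amyloid-β on the cells, or which cultures or litters a number stands for. Replicates are described as biological in the design text of the series.

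Gene counts summed to 28056346 to 33168494 per hnRNP A2 library, 81463 to 4096829 per IgG library and 14773400 to 25751522 per input library. The shallowest was IgG number 2, where a single read stands for 9.79 CPM, the unit of counts scaled to library size used below. The files pair no identifier with a symbol, and 0 of the 47357 rows of the RefSeq gene table used here carry an Ensembl identifier. Other myelin genes and markers of other cell types were therefore not analysed here, and the cell type could be checked only through Mbp and Mobp themselves.

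The sequence around the starts of both members is printed as a description. Whether it bears on the levels given below was not tested. RefSeq's windows of 250 bases before to 50 bases after a gene start (assembly GRCr8, plus strand in all 3 cases, 5′ to 3′) held 2 windows for Mbp and 1 for Mobp. Capitals mark matches to ACAAAG, the core bound by SOX family transcription factors, or to its reverse complement CTTTGT, searched on both strands. This motif was chosen after the windows had been read.
Mbp, first window, chr18:78130402-78130701: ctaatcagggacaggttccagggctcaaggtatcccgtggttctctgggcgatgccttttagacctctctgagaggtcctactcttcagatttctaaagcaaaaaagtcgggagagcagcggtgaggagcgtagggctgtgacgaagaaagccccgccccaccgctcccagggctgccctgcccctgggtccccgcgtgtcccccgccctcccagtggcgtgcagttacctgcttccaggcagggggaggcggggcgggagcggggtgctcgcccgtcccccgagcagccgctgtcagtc
Mbp, second window, chr18:78209995-78210294: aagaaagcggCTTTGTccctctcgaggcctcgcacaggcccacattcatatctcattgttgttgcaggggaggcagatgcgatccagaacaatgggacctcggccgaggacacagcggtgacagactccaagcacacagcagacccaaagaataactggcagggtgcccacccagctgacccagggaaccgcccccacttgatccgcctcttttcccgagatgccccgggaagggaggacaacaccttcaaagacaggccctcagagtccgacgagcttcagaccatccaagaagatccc
Mobp, chr8:128746982-128747281: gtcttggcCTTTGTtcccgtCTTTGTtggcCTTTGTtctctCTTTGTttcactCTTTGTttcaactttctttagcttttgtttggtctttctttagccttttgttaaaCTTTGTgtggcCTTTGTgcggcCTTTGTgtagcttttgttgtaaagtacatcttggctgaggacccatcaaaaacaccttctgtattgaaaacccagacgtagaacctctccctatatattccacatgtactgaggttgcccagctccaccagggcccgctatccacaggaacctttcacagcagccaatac
The Mobp window held 8 matches, all read as CTTTGT on the printed strand and all upstream of the gene start. The first Mbp window held 0 matches and the second held 1. Of 33469 windows of the same length, 18.8% held at least 1 match. Because the motif was picked from these windows, the counts do not show whether the Mobp window is unusual. The windows also differed in base composition, with 65% G and C in the first Mbp window, 58.3% in the second and 44.3% in that of Mobp, against a median of 51.7% over all windows. A match is a string of letters and was not tested for binding.

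Mbp was among the genes with the most counts in every library, whatever the kind of library or the treatment. Counts are not corrected for transcript length, so these ranks are not ranks of RNA abundance. By raw gene counts Mbp ranked between place 1 and place 11 in each of the 15 libraries. It had the highest count in 4 of them: number 3 of both hnRNP A2 groups, and IgG numbers 3 and 4. In the amyloid-β hnRNP A2 IP it had 4666, 18876 and 11926 CPM in numbers 2, 3 and 4, where CPM are counts scaled with TMM factors over all 15 libraries. The control hnRNP A2 IP had 4942, 17303 and 12619 CPM. In the IgG IP the values were 4149, 25983 and 19176 CPM. The amyloid-β input had 7677, 12788 and 17522 CPM, and the control input had 7118, 20096 and 18305 CPM. In each of the 5 groups number 2 was the lowest library, and the ranges of the groups overlapped. The group means ran from 16436 ± 11171 CPM in IgG, over 15173 ± 7033 in control input, 12662 ± 4924 in amyloid-β input and 11823 ± 7105 in the amyloid-β hnRNP A2 IP, to 11621 ± 6240 in the control hnRNP A2 IP (SD, n = 3 each). No neighbours in that order differed by more than their SD. That SD includes the gap between number 2 and the other numbers, and same-numbered libraries are compared below.

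Mobp showed the same split by number, with a wider gap. By raw counts it ranked 62nd in number 3 of both hnRNP A2 groups, 69th in number 3 of IgG, and 452nd and 179th in number 3 of amyloid-β and control input. In number 4 it ranked 106th and 140th in the amyloid-β and control hnRNP A2 IP. There it ranked 177th in IgG, and 294th and 324th in amyloid-β and control input. In the number 2 libraries its ranks lay between place 3523 and place 6602. In the amyloid-β hnRNP A2 IP it had 47.7, 1114 and 754 CPM in numbers 2, 3 and 4, and in the control hnRNP A2 IP 53.1, 1118 and 654 CPM. In the IgG IP it had 9.79, 1247 and 655 CPM. The first of these is 1 read, for which a 95% Poisson interval reaches from 0.248 to 54.5 CPM. The amyloid-β input had 44.3, 361 and 446 CPM, and the control input had 49.5, 635 and 469 CPM. All 5 number 2 libraries lay below all 10 others, at 9.79 to 53.1 CPM against 361 to 1247 CPM. For Mbp the same split was 4149 to 7677 CPM against 11926 to 25983 CPM. The mean of Mobp was 638 ± 542 CPM in the amyloid-β hnRNP A2 IP, 609 ± 534 in the control hnRNP A2 IP, 637 ± 619 in IgG, 284 ± 212 in amyloid-β input and 385 ± 302 in control input (SD, n = 3 each), and none of the neighbours in order of level differed by more than the SD. For Mobp too the SD includes the gap between number 2 and the other numbers. The levels of the 2 genes are not set against each other, because the files give no transcript lengths. The counts per gene also pool all transcript forms of Mbp.

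**Figure D1:**
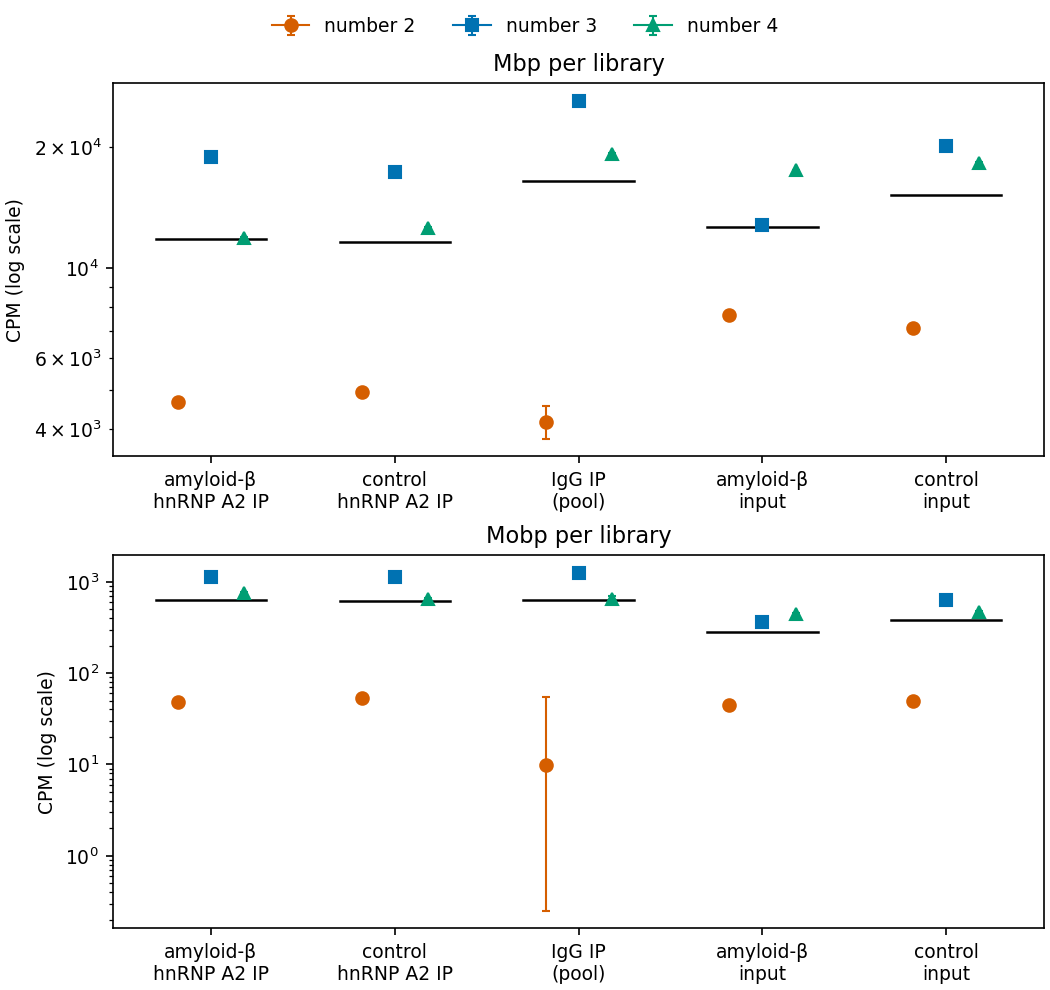
Level of Mbp (upper panel) and Mobp (lower panel) in each of the 15 libraries, in CPM on a log scale. Each point is 1 library, colour and shape give the number in its title, black lines are group means, and error bars are 95% Poisson intervals, which cover counting error only and are mostly smaller than the points. The number 2 libraries are the lowest of each group, at 4149 to 7677 CPM for Mbp and 9.79 to 53.1 CPM for Mobp.

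The gap between number 2 and the mean of numbers 3 and 4 was set beside that of the 15344 genes kept over all 15 libraries, as a description with no test. In the hnRNP A2 IP, the log2 gap of Mobp was -4.26 in amyloid-β cells and -4.01 in control cells, and 4 and 12 genes had a lower value. In input it was -3.17 in amyloid-β cells and -3.46 in control cells, with 57 and 36 genes lower. In none of these 4 groups did more than 0.371% of genes have a lower value than Mobp. For Mbp the log2 gap was -1.68 and -1.58 in the amyloid-β and control hnRNP A2 IP, and -0.96 and -1.43 in amyloid-β and control input, where 3.25% to 10.5% of genes had a lower value. In IgG the gap was -2.43 for Mbp and -6.52 for Mobp, but the depth of IgG number 2 limits these values, and the median over all genes was -0.98 there. In bulk RNA, fewer cells of a type and less RNA per cell cannot be told apart. What number 2 stands for is not labelled, so results are given with and without its libraries.

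The comparison of the hnRNP A2 IP with IgG asks whether an RNA took a larger share of the hnRNP A2 libraries than of the IgG background. Scaled counts compare shares, here and below after TMM scaling, so the amount of RNA recovered over background was not measured. Neither Mbp nor Mobp passed the test in either direction, whereas 13.6% of the 15304 genes tested did (edgeR's quasi-likelihood test, Benjamini-Hochberg adjusted p under 0.05). Mbp had a log2 fold change of -0.51 (SE 0.58, 95% interval -1.78 to 0.76, edgeR adjusted p = 0.598). That value lay above 20.7% of all genes tested, whose median was 0.07. Mobp had a log2 fold change of -0.14 (SE 1.01, 95% interval -2.35 to 2.07, edgeR adjusted p = 0.957), above 38.7% of genes. In this fit, without a replicate term, the interval of Mobp allows a change of more than 2-fold either way. Its SE was larger than that of 93.1% of genes. With the replicate number as a block, Mbp was at -0.36 (SE 0.19, 95% interval -0.76 to 0.05, edgeR adjusted p = 0.163). Mobp was then at 0.03 (SE 0.19, 95% interval -0.38 to 0.43, edgeR adjusted p = 0.936), an interval within 2-fold either way.

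Taken by treatment, neither member passed against the IgG libraries. The amyloid-β hnRNP A2 IP had log2 fold changes over IgG of -0.50 for Mbp (SE 0.68) and -0.10 for Mobp (SE 1.17), with edgeR adjusted p = 0.688 and 0.979, while 7.53% of genes were called. The control hnRNP A2 IP had -0.53 for Mbp (SE 0.68) and -0.17 for Mobp (SE 1.17), with edgeR adjusted p = 0.676 and 0.956, while 6.72% of genes were called. Both comparisons share the IgG libraries.

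Within a number, Mbp stood at or above IgG only in number 2. In amyloid-β cells its level in the hnRNP A2 IP was 1.12, 0.726 and 0.622 times that of IgG in numbers 2, 3 and 4. In control cells it was 1.19, 0.666 and 0.658 times. Mobp in numbers 3 and 4 was 0.893 and 1.15 times IgG in amyloid-β cells, and 0.897 and 0.999 times in control cells. Its number 2 values rest on the single IgG read. Without the number 2 libraries the log2 fold change of Mbp over IgG was -0.59 (SE 0.25, edgeR adjusted p = 0.126), and that of Mobp was -0.09 (SE 0.32, edgeR adjusted p = 0.872). With the replicate number as a block and without number 2, Mbp was called lower in the hnRNP A2 IP than in IgG, at -0.60 (SE 0.14, edgeR adjusted p = 0.00662). Of the settings run, Mbp was called only in this one, which was chosen after seeing the data.

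The comparison with input asks whether an RNA took a larger TMM-scaled share of what was recovered with hnRNP A2 than of total cell RNA. TMM factors over all 15 libraries ran from 1.12 to 1.25 in the hnRNP A2 IP and from 0.672 to 0.887 in input. As a plain percentage of gene counts, mean Mbp was 1.36% in the IP against 1.07% in input of amyloid-β cells. In control cells it was 1.34% against 1.17%. After TMM scaling the fold changes of the 2 mRNAs had opposite signs, and neither passed without a replicate term. In amyloid-β cells the log2 fold change over input was -0.12 for Mbp (SE 0.57, edgeR adjusted p = 0.885) and 1.13 for Mobp (SE 1.17, edgeR adjusted p = 0.472), and 39.1% of 15303 genes were called. Mobp lay above 84.7% of genes and Mbp above 46.1%. In control cells it was -0.38 for Mbp (SE 0.57, edgeR adjusted p = 0.631) and 0.66 for Mobp (SE 1.16, edgeR adjusted p = 0.689), and 37.4% of genes were called. Mobp lay above 71.8% of genes and Mbp above 35.3%.

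Within same-numbered pairs, Mobp was higher in the hnRNP A2 IP than in input in 6 of 6 pairs. In amyloid-β cells it was 1.08, 3.08 and 1.69 times input in numbers 2, 3 and 4, and in control cells 1.07, 1.76 and 1.39 times. Mbp was lower in 5 of 6 pairs, at 0.608, 1.48 and 0.681 times input in amyloid-β cells and 0.694, 0.861 and 0.689 times in control cells. The exception was number 3 of the amyloid-β cells, whose input had the lowest Mbp of the libraries with numbers 3 and 4 in the input groups.

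With the replicate number as a block, Mobp was called higher in the amyloid-β hnRNP A2 IP than in its input, at a log2 fold change of 0.80 (SE 0.25, 95% interval 0.27 to 1.34, edgeR adjusted p = 0.0156). In that fit 24.6% of all genes were called higher, so Mobp was 1 of many. The call was lost without number 3 of the amyloid-β input (0.51, edgeR adjusted p = 0.0517), without number 3 of the amyloid-β hnRNP A2 IP (0.64, edgeR adjusted p = 0.0692) and without number 4 of that IP (0.76, edgeR adjusted p = 0.0624). Without the number 2 libraries and without a block, a setting chosen after seeing that Mobp was lowest in them, it was also called, at 1.17 (SE 0.35, edgeR adjusted p = 0.0192). In control cells Mobp did not pass with the block (0.49, SE 0.25, edgeR adjusted p = 0.119) or without number 2 (0.68, SE 0.35, edgeR adjusted p = 0.147). With the block and library sizes alone, a scaling added after seeing the data, Mobp was called higher in both treatments, at 1.28 in amyloid-β cells (edgeR adjusted p = 0.000414) and 1.12 in control cells (edgeR adjusted p = 0.00121). The difference between the treatments is tested as an interaction below, where it did not pass. Mbp did not pass with the block in either treatment, at -0.27 (SE 0.25, edgeR adjusted p = 0.404) in amyloid-β cells and -0.41 (SE 0.25, edgeR adjusted p = 0.191) in control cells. The sign of Mbp here depended on the scaling: with library sizes alone, without a block, it was 0.35 in amyloid-β cells and 0.20 in control cells, neither of which passed.

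**Figure D2:**
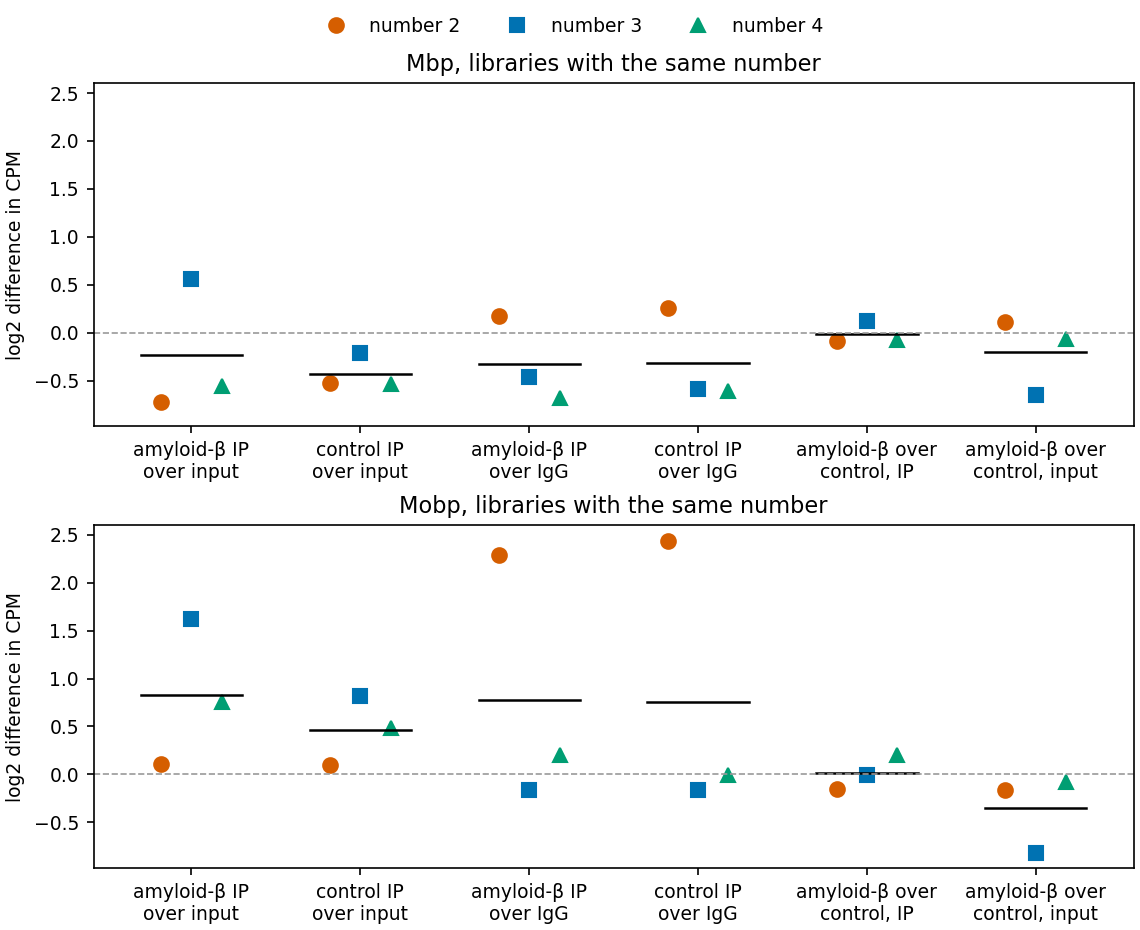
Log2 difference in CPM between libraries with the same number, for Mbp (upper panel) and Mobp (lower panel). Each point is 1 pair, colour and shape give the number, black lines are means of 3 pairs, and the dashed line marks no difference. After TMM scaling, Mobp lies above the line in 6 of 6 pairs of hnRNP A2 IP and input, and Mbp lies below it in 5 of 6. The direction of Mbp differed in some of these pairs without TMM scaling. The number 2 points of Mobp against IgG rest on 1 IgG read.

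The comparison of IgG with input gives the same measure for an IP without the hnRNP A2 antibody. Mobp had a log2 fold change of IgG over input of 1.02 (SE 0.82, edgeR adjusted p = 0.365) and Mbp of 0.28 (SE 0.52, edgeR adjusted p = 0.722), and 30.6% of 14205 genes were called. Mobp lay above 84.2% of genes and Mbp above 63.7%. In numbers 3 and 4, Mobp in IgG was 3.45 and 1.47 times the amyloid-β input and 1.96 and 1.40 times the control input. Without the number 2 libraries, again a setting chosen after seeing the data, Mobp was called higher in IgG than in input, at 1.03 (SE 0.35, edgeR adjusted p = 0.0257), and with no expression filter at 0.96 (edgeR adjusted p = 0.0171). The value without number 2 stood beside 1.17 for the amyloid-β hnRNP A2 IP over its input in the same setting. These comparisons share the input libraries, and no difference between them was tested beyond the hnRNP A2 and IgG comparison above. The IgG and input libraries did not meet the cutoff for reading numbers as pairs, a same-numbered r above 0.1 throughout. With amyloid-β input the same-numbered r was -0.0594 to 0.0913, and differently numbered libraries reached 0.118. With control input it was 0.0723 to 0.102, and differently numbered libraries reached 0.0165. The blocked values, 0.05 for Mbp (edgeR adjusted p = 0.909) and 0.67 for Mobp (edgeR adjusted p = 0.137), are therefore plotted for completeness and not read as a paired result.

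**Figure D3:**
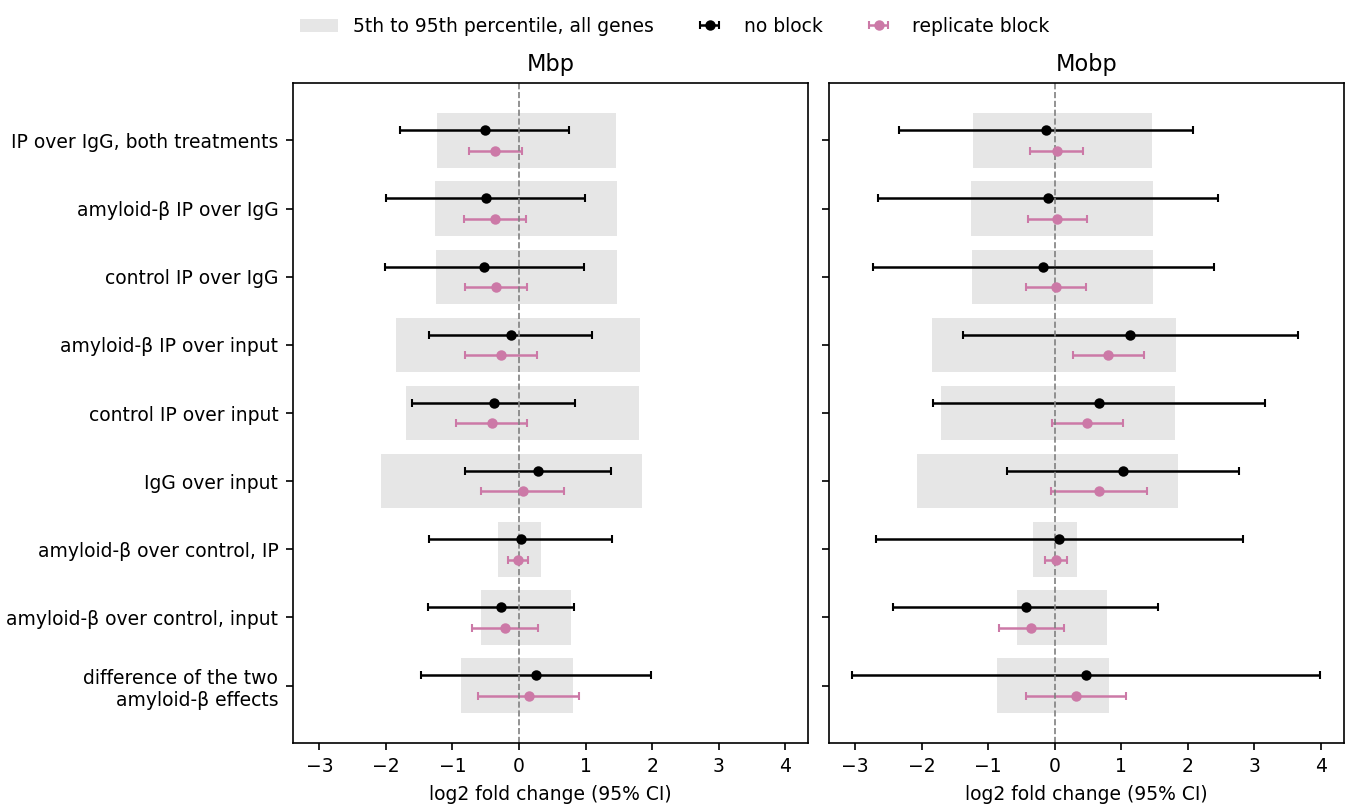
Log2 fold change of Mbp (left) and Mobp (right) in the 9 comparisons, with 95% confidence intervals from edgeR. Black points are fits without a replicate term, pink points have the replicate number as a block, and grey bars span the 5th to the 95th percentile of all genes tested in the fit without a block. The only interval that leaves out 0 is that of Mobp in the amyloid-β hnRNP A2 IP over input with the block, at 0.27 to 1.34.

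The treatment comparisons ask whether oligomeric amyloid-β altered the share of either mRNA, in cell RNA or in the RNA recovered with hnRNP A2. These counts measure RNA and not protein or translation. In the hnRNP A2 IP the log2 fold change of amyloid-β over control was 0.03 for Mbp (SE 0.59, edgeR adjusted p = 1.00) and 0.07 for Mobp (SE 1.18, edgeR adjusted p = 1.00). Of 15118 genes 0% were called by edgeR and 0 by DESeq2, and 42 had an unadjusted edgeR p under 0.05. Same-numbered libraries of the hnRNP A2 IP lay close together. Mbp in amyloid-β cells was 0.944, 1.09 and 0.945 times control in numbers 2, 3 and 4, and Mobp was 0.899, 0.996 and 1.15 times control. With the block, the 95% interval of the log2 fold change was -0.17 to 0.14 for Mbp and -0.14 to 0.18 for Mobp, around -0.01 and 0.02. Without the block the intervals were -1.35 to 1.40 for Mbp and -2.69 to 2.83 for Mobp.

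In input RNA, Mobp was lower with amyloid-β in each of the 3 pairs, and the test did not pass. Its log2 fold change was -0.44 (SE 0.89, edgeR adjusted p = 0.960) and that of Mbp was -0.27 (SE 0.49, edgeR adjusted p = 0.956). Of 13793 genes 0% were called by edgeR and 0 by DESeq2, and 188 had an unadjusted edgeR p under 0.05. Mobp in amyloid-β input was 0.896, 0.568 and 0.949 times control in numbers 2, 3 and 4, and Mbp was 1.08, 0.636 and 0.957 times. Number 3 held the widest gap for both. With the block the values were -0.35 for Mobp (95% interval -0.85 to 0.14, edgeR adjusted p = 0.562) and -0.21 for Mbp (95% interval -0.70 to 0.29, edgeR adjusted p = 0.761).

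Whether amyloid-β altered the share recovered with hnRNP A2 relative to input was tested as an interaction. It was 0.26 for Mbp (SE 0.80, 95% interval -1.47 to 1.99) and 0.47 for Mobp (SE 1.63, 95% interval -3.05 to 3.99), each with an edgeR adjusted p = 1.00. With the block it was 0.15 (95% interval -0.62 to 0.91, edgeR adjusted p = 0.975) for Mbp and 0.32 (95% interval -0.43 to 1.06, edgeR adjusted p = 0.969) for Mobp. Of 15303 genes 0% were called by edgeR and 0 by DESeq2, and 125 had an unadjusted edgeR p under 0.05. The upper bounds for Mobp exceed a 2-fold change in both fits.

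The ratio of Mbp to Mobp counts within a library does not depend on the scaling between libraries. In the amyloid-β hnRNP A2 IP there were 97.8, 16.9 and 15.8 Mbp counts per Mobp count in numbers 2, 3 and 4, and in the control hnRNP A2 IP 93.1, 15.5 and 19.3. In IgG there were 20.8 and 29.3 in numbers 3 and 4. IgG number 2 had 424 Mbp counts and 1 Mobp count, a ratio with a 95% exact binomial interval of 75.7 to 16786. The amyloid-β input had 173, 35.4 and 39.3, and the control input 144, 31.6 and 39.0. Number 2 stands apart in each group, and within each number the hnRNP A2 libraries lie below the input libraries.

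Against input of the same number and treatment, the ratio was lower in the hnRNP A2 IP in 6 of 6 pairs, by 1.55 to 2.49 times. The mean log2 ratio was 4.91 ± 1.30 in the hnRNP A2 IP and 5.89 ± 1.11 in input (SD, n = 6 each), a difference of -0.98. Unpaired, it did not pass (2-sided exact permutation test, p = 0.197, adjusted p = 0.893 over 5 comparisons). Over pairs, flipping signs in an exact permutation test, p was 0.0312 (adjusted p = 0.156), the lowest value possible with 6 pairs, which come from 3 numbers. Without the number 2 libraries the groups did not overlap, at a log2 ratio of 4.07 ± 0.14 in the hnRNP A2 IP and 5.18 ± 0.15 in input (SD, n = 4 each). The exact permutation test then gave p = 0.0286, the smallest possible, with an adjusted p of 0.143. The 4 libraries of each kind come from 2 numbers, and same-numbered libraries deviated together, so this p treats as independent what is not.

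The ratio in the hnRNP A2 IP was also below that of IgG in 6 of 6 same-numbered comparisons, which use each IgG library for both treatments and include the single read of number 2. The mean log2 ratio was 4.91 ± 1.30 in the hnRNP A2 IP (SD, n = 6) and 5.99 ± 2.38 in IgG (SD, n = 3; exact permutation test, p = 0.357, adjusted p = 0.893). Without number 2 it was 4.07 ± 0.14 (SD, n = 4) in the hnRNP A2 IP and 4.63 ± 0.35 (SD, n = 2) in IgG, which allow no exact permutation p under 0.133. IgG without number 2 lay between the hnRNP A2 IP and input. Between amyloid-β and control, the log2 ratio differed by -0.03 in the hnRNP A2 IP (exact permutation test, p = 1) and by 0.15 in input (exact permutation test, p = 0.6), where 0.1 is the smallest p possible.

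**Figure D4:**
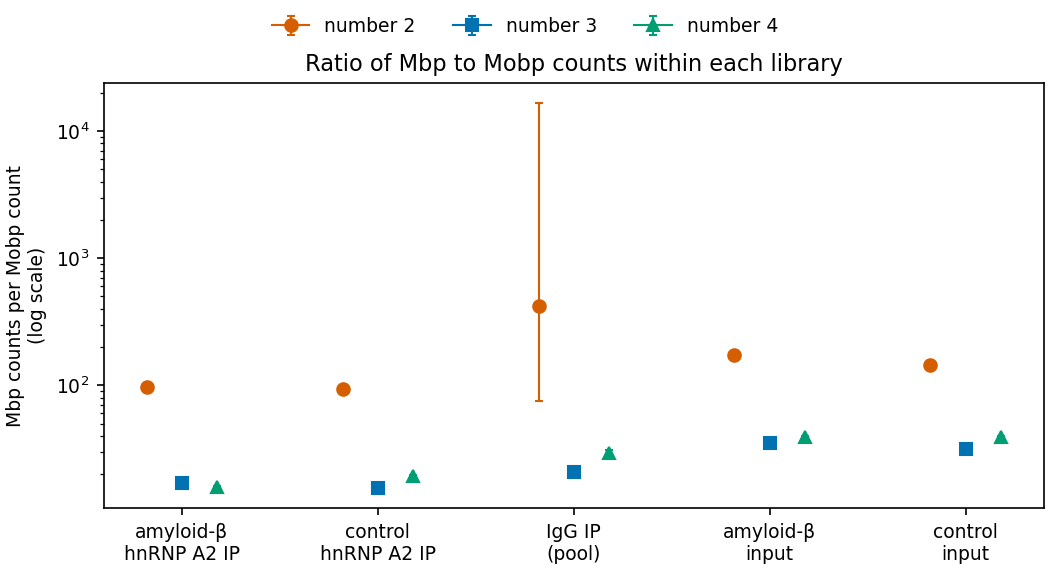
Counts of Mbp per count of Mobp within each of the 15 libraries, on a log scale. Colour and shape give the number in the title, and error bars are 95% exact binomial intervals, which cover counting error only. Within each number the hnRNP A2 libraries lie below the input libraries, from 15.5 to 97.8 against 31.6 to 173, and IgG number 2 rests on 1 Mobp read.

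The genes with the most similar pattern were found from the Pearson correlation of log2 CPM over the 15 libraries among 8974 other genes with a mean of at least 10 CPM. This is a description, since the libraries share numbers, and number 2 is low for each of these genes. For Mbp they were ENSRNOG00000002997 (r = 0.97) and ENSRNOG00000001480 (r = 0.97), and Mobp ranked 11th with r = 0.93. For Mobp they were ENSRNOG00000011211 (r = 0.97) and ENSRNOG00000008058 (r = 0.97), and Mbp ranked 21st. In the hnRNP A2 libraries ENSRNOG00000011211 had 1.29 to 1.96 CPM in number 2 and 17.1 to 18.3 CPM in numbers 3 and 4. Over the 10 libraries with numbers 3 and 4 alone, the correlation between Mbp and Mobp was 0.45, and that of the most similar genes with their member was 0.81 and 0.78 for Mbp and 0.43 and 0.39 for Mobp. These 10 values come from 2 numbers and are given with no test.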

How the data were processed

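Each deposited file held raw read counts for 30560 Ensembl gene identifiers, whole numbers with no normalization, followed by 5 rows of totals outside any gene. The submitters' processing notes list the tools HTSeq, STAR 2.7.1, DESeq2 and R 4.2.2 without their roles. Genome build, annotation and strand setting were not stated in the labels, so reads antisense to Mbp or Mobp could not be separated. The 5 rows of totals, 65.5% to 91.4% of a file's total, were left out. Their part was 65.5% to 71.7% for the hnRNP A2 IP, 68.2% to 91.4% for IgG and 76.0% to 85.5% for input. Alignments that were not unique made up 13.9% to 28.4% of aligned reads in the hnRNP A2 IP. In IgG they made up 25.5% to 75.7%, and in input 46.8% to 67.2%. Whether this difference bears on the comparisons was not tested.

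Genes were tested with edgeR 4.0.16 in R 4.3.3 (TMM, default expression filter, quasi-likelihood F test, Benjamini-Hochberg over all genes, threshold 0.05) on the libraries of each comparison, without a replicate term. Only the member rows are printed. An SE is the log2 fold change divided by the square root of F. The edgeR fit without a block was tried on simulated counts that held no effect of the number. Blocked fits, DESeq2 and the permutation tests were not tried in that way. Ratios used 2-sided exact permutation tests.

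The alternatives were the replicate block, DESeq2 1.42.0, other scalings, no filter, all 15 libraries in 1 fit and each library left out, with others added after seeing the data. Numbers were read as pairs where the deviations of all same-numbered libraries from their group means correlated at r above 0.1. This held in each comparison (lowest r = 0.124) but that of IgG with input (lowest r = -0.0594). Pairs were not always set apart from other libraries. For the amyloid-β hnRNP A2 IP with its input, the lowest same-numbered r was 0.154 and differently numbered libraries reached 0.281. With IgG these were 0.125 and 0.142. Every pair of libraries in a group differed by more than sampling noise.

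The members, gene lists and tests were chosen with earlier results of these data known. The named genes were both members and, for each, the 2 genes with the highest correlation. The myelin, hnRNP A2 granule and marker lists could not be counted without gene names. P-values measure only the spread between these libraries. Poisson and binomial intervals cover counting error only, and edgeR intervals the spread between libraries.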

Additional observations from a re-analysis of the deposited data

How the results depend on the processing

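Of 177 alternative values each for Mbp and Mobp over the 9 comparisons, 153 and 139 kept the direction and the side of the threshold, 21 and 27 changed sign without passing, and 3 and 11 passed. Each value that changed sign was smaller than its SE. Values are log2 fold changes.

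With the replicate block, Mobp over IgG was 0.0260 (both treatments), 0.0349 (amyloid-β) and 0.0171 (control), Mobp over input in amyloid-β cells 0.80, and Mbp with amyloid-β in the hnRNP A2 immunoprecipitation (IP) -0.0128. The block changed no other call of a member. With DESeq2 and the block these were 0.0996, 0.106, 0.0929, 0.80 and -0.00877, and with the block and library sizes alone 0.102, 0.114, 0.0909, 1.28 and -0.00630. The last setting also gave Mobp over input 1.12 in control cells, which passed as in amyloid-β cells, Mbp over input 0.21 in amyloid-β and 0.22 in control cells, Mobp in IgG over input 1.09 and the interaction of Mbp -0.00800. With library sizes alone Mbp over input was 0.35 in amyloid-β and 0.20 in control cells. The block within each treatment gave Mobp over amyloid-β input 0.82. No expression filter gave Mobp in IgG over input 0.96. Without number 2, Mobp was 1.17 over amyloid-β input and 1.03 in IgG over input, and the log2 ratio of IgG over input was -0.55. With the block and without number 2, Mbp over IgG was -0.60 (both), -0.59 (amyloid-β) and -0.61 (control), Mobp over IgG 0.00215 (amyloid-β), Mobp over amyloid-β input 1.11 and Mobp in IgG over input 0.98. The cause of these changes was not tested.

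Leaving out each library in turn, Mbp over IgG ranged from -0.95 to 0.0134 (both), -0.99 to 0.0259 (amyloid-β) and -0.97 to 0.000878 (control), and Mobp from -0.62 to 0.70, -0.76 to 0.74 and -0.95 to 0.67. Mbp turned positive without IgG number 3. Over input, Mobp ranged from -0.13 to 1.21 in control cells, Mbp from -0.63 to 0.26 in amyloid-β cells, and the blocked Mobp value from 0.51 to 1.01. Mbp in IgG over input ranged from -0.29 to 0.65. The interaction ranged from -0.25 to 0.67 for Mbp and -0.20 to 1.27 for Mobp. The effect of amyloid-β in input ranged from -0.62 to 0.0148 for Mbp and -0.97 to 0.14 for Mobp, and in the IP from -0.49 to 0.43 and -0.60 to 0.85. The log2 ratio ranged from -1.89 to 0.28 for IP over IgG, -1.26 to 0.91 for IgG over input, -0.59 to 0.83 for amyloid-β in input and -0.89 to 0.78 in the IP.

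The counts of all genes called moved by over 1.5 times for the comparisons with IgG. The 2084 (both), 1153 (amyloid-β) and 1029 (control) became 5392, 4963 and 4854 with the block, 5128, 4670 and 4558 with DESeq2 and the block, 5456, 5110 and 4918 with the block and library sizes alone, and 4669, 3948 and 3872 with the block and without number 2. Leaving out a library gave 21 to 2428, 0 to 1944 and 0 to 1943, the lowest without IgG number 4 (for control also without control IP number 3). All 15 libraries in 1 fit gave 666 in amyloid-β and 583 in control, and leaving out number 2 gave 1858 and 1750. IgG over input gave 4341, and 2193 without IgG number 4. Between amyloid-β and control, the block gave 1 gene in the IP, and 18 with DESeq2, against 0 without it. With the block, library sizes alone gave 144 genes in input and 7 in the IP, and leaving out number 2 gave 189 and 17.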
